A study of Mus musculus with 8 samples.

Results

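The 9 genes described here encode proteins of the absorptive epithelium that lines the surface of the colon: the carbonic anhydrases Car1, Car2 and Car4, the aquaporins Aqp8 and Aqp4, and Clca4a, Ms4a12, Mal and Ceacam20. They were chosen by name as surface colonocyte genes after earlier results from these same libraries were known, so their differences between genotypes were selected on measured values of the data and are given as a description without a test. All 9 were found, out of 40178 genes listed in either of the deposited tables. RNA was sequenced from intestinal epithelial cells that EDTA had released from the ileum and the colon of mice on a C57BL/6 background, 8 weeks old. WTIEC mice carried the genotype DDX5(+/+), Vil1Cre(+). DDX5ΔIEC mice carried Ddx5 fl/fl alleles with the same Villin1 Cre, so both genotypes had the recombinase, and Villin1 drives it throughout the intestinal epithelium rather than in surface colonocytes alone. By the mouse numbers in a supplementary table there were 2 mice of each genotype, 4 in all, each giving 1 ileum and 1 colon library, so the tissues are not independent samples. Total counts were 17385217 and 20393824 in the WTIEC colon, 16883951 and 19437275 in the DDX5ΔIEC colon, 22984283 and 14878989 in the WTIEC ileum, and 11768205 and 11571061 in the DDX5ΔIEC ileum.

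At the top of colonic crypts, mature colonocytes take up sodium, chloride and water and release bicarbonate. Carbonic anhydrases interconvert CO2 and bicarbonate, which feeds the exchange of ions across the apical membrane, and aquaporins are channels through which water crosses membranes. MAL is a membrane protein of lipid rafts that takes part in apical sorting, and CEACAM20 is an adhesion molecule of the microvilli. CLCA4 proteins belong to a family named for calcium-activated chloride conductance, and MS4A12 spans the membrane of colonic epithelial cells.

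Levels are TMM-normalized CPM (counts divided by a library size that TMM adjusts for composition) unless a sentence names another scale. Ddx5 itself was at 771 and 706 CPM in the WTIEC colon, 367 and 355 CPM in the DDX5ΔIEC colon, 700 and 700 CPM in the WTIEC ileum, and 340 and 326 CPM in the DDX5ΔIEC ileum. The paper reports efficient loss of the RNA by qRT-PCR and of the protein by Western blot. Here every DDX5ΔIEC library was below every WTIEC library, but Ddx5 RNA, counted over all exons, remained present in all 4 DDX5ΔIEC libraries. Its log2 fold change was −1.04 ± 0.09 (SE) in the colon, with an edgeR p adjusted over all genes of 0.0866, and −1.07 ± 0.17 in the ileum, with an adjusted p of 0.0270. The tissue labels held, in that the posterior colon gene Hoxb13 was at 195 and 159 CPM in the WTIEC colon and at most 0.416 CPM in any ileum library, and 15 of 15 genes of ileal absorptive cells were higher in the WTIEC ileum at an adjusted p under 0.05. One library stood apart: 3 repeat-like genes (Gm10800, Gm10801 and Gm21738) took 19.5% of the counts in DDX5ΔIEC ileum replicate 2, against 4.04% and 3.93% in the WTIEC ileum, 0.226% in DDX5ΔIEC ileum replicate 1 and at most 0.261% in the colon libraries. Without those genes the number of the 9 genes meeting each criterion used below stayed the same.

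The name surface colonocyte gene was first held against the levels in WTIEC mice, by comparing the colon with the ileum over all genes. Since these libraries took part in the choice of the genes, the contrast is given for them as a description without a p. In WTIEC mice 5 of the 9 genes were higher in the colon at an adjusted p under 0.05, where 16.8% of all 16178 genes tested were, and 4 of the 9 were higher in the ileum, where 17.4% of all genes were, and nothing is read from these shares. Car1 was at 2033 and 2422 CPM in the colon and at 4.15 and 1.53 CPM in the ileum. Car2 was at 739 and 671 CPM in the colon and at 1.43 and 2.08 CPM in the ileum. Aqp8 was at 281 and 222 CPM in the colon and at 0.508 and 1.04 CPM in the ileum. Those 3 genes were scarcely counted in the ileum, with at most 90 counts in any WTIEC library there. Aqp4 was at 774 and 803 CPM in the colon and at 24.8 and 22.5 CPM in the ileum. Mal was at 15.5 and 14.7 CPM in the colon and at 0.600 and 0.347 CPM in the ileum. For these 5 genes both colon libraries exceeded both ileum libraries, by 784-fold for Car1, 401-fold for Car2, 325-fold for Aqp8, 33.4-fold for Aqp4 and 31.9-fold for Mal in the ratio of group means. The log2 fold changes of colon over ileum were 9.57 ± 0.45 for Car1, 8.67 ± 0.23 for Car2, 8.41 ± 0.37 for Aqp8, 5.06 ± 0.13 for Aqp4 and 4.91 ± 0.42 for Mal.

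The levels of the other 4 genes went against that name in WTIEC mice. Clca4a was at 469 and 689 CPM in the ileum and at 106 and 122 CPM in the colon. Car4, a carbonic anhydrase anchored to the outer face of the apical membrane, was at 472 and 542 CPM in the ileum and at 245 and 237 CPM in the colon. Ceacam20 was at 247 and 232 CPM in the ileum and at 110 and 123 CPM in the colon. Each of these was higher in both ileum libraries than in both colon libraries. Ms4a12 was also higher in the ileum, at 19.6 and 18.7 CPM, than in the colon, at 12.9 and 12.8 CPM. The log2 fold changes of colon over ileum were −2.34 ± 0.35 for Clca4a, −1.07 ± 0.17 for Car4, −1.04 ± 0.16 for Ceacam20 and −0.57 ± 0.17 for Ms4a12. Ms4a12 was among the 4 only with all 4 WTIEC libraries: without WTIEC colon replicate 1, WTIEC colon replicate 2, WTIEC ileum replicate 1 or WTIEC ileum replicate 2 its log2 fold change was −0.57, −0.56, −0.53 or −0.60 and it did not pass the threshold, while it did under the other alternatives. The 9 genes are called by their names here, and not as markers of one cell type.

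**Figure D1:**
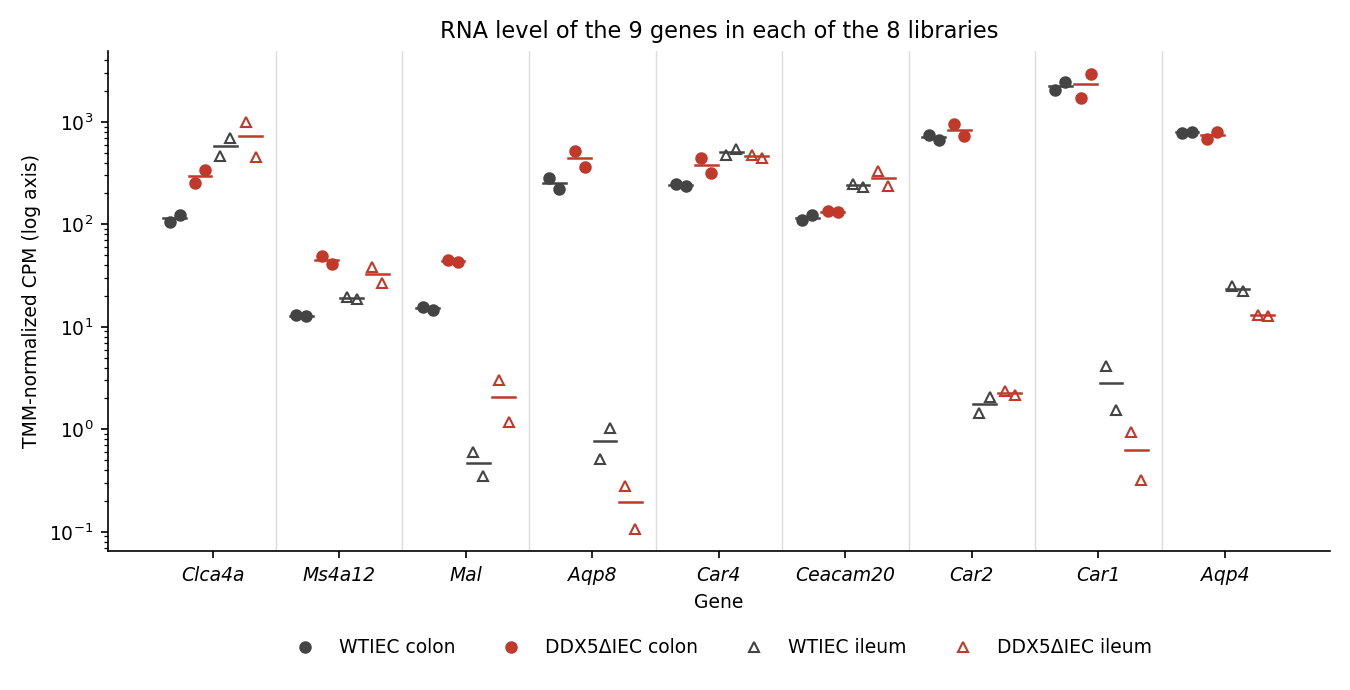
RNA level of each of the 9 genes in each of the 8 libraries, in TMM-normalized CPM on a log axis. Circles are colon libraries and triangles ileum libraries, gray for WTIEC and red for DDX5ΔIEC, and the short lines are group means of 2 libraries. Car1, Car2, Aqp8, Aqp4 and Mal sit far lower in the ileum, while Clca4a, Car4 and Ceacam20 are higher there.

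Levels of different genes were compared per kilobase of transcript. In the WTIEC colon Car1 was highest at 1785 ± 220 CPM per kilobase (SD, n = 2), followed by Car2 at 291 ± 19.9. Aqp8 at 159 ± 26.2 and Aqp4 at 155 ± 4.05 CPM per kilobase did not differ beyond their spread, and Car4 came next at 123 ± 2.74. Ceacam20 at 40.2 ± 3.22 and Clca4a at 38.0 ± 3.92 CPM per kilobase did not differ beyond their spread either. Ms4a12 at 16.2 ± 0.100 and Mal at 5.44 ± 0.215 CPM per kilobase were lowest. The order in the DDX5ΔIEC colon began with Car1 at 1868 ± 714 and Car2 at 347 ± 69.5 CPM per kilobase and ended with Mal at 15.8 ± 0.667. The spread of Aqp8 at 279 ± 68.5 CPM per kilobase overlapped that of Car2 above it and that of Car4 below it at 193 ± 45.2. The spread of Car4 overlapped that of Aqp4 at 145 ± 14.7. There Clca4a at 98.9 ± 19.7 and Ms4a12 at 56.4 ± 7.30 CPM per kilobase stood above Ceacam20 at 46.0 ± 1.13. In the WTIEC ileum the order was led by Car4 at 258 ± 25.0 CPM per kilobase and Clca4a at 193 ± 51.8, which overlapped, followed by Ceacam20 at 82.9 ± 3.79 and Ms4a12 at 24.1 ± 0.807, and the other 5 genes lay from Aqp4 at 4.65 ± 0.320 to Mal at 0.170 ± 0.0644, with Car2 at 0.725 ± 0.190 overlapping both Car1 at 2.28 ± 1.49 and Aqp8 at 0.490 ± 0.238. In the DDX5ΔIEC ileum Clca4a at 243 ± 129 and Car4 at 235 ± 12.2 CPM per kilobase overlapped as well, and the spread of Ceacam20 at 97.9 ± 23.0 overlapped that of Clca4a. Ms4a12 at 40.9 ± 9.89 and Aqp4 at 2.55 ± 0.0375 followed, and then Car2 at 0.926 ± 0.0587, Mal at 0.752 ± 0.463, Car1 at 0.504 ± 0.349 and Aqp8 at 0.123 ± 0.0778, where each overlapped the next.

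Together the 9 genes took 0.473% (95% Wilson interval 0.469% to 0.476%) and 0.516% (0.512% to 0.519%) of all counts in the WTIEC colon libraries and 0.514% (0.511% to 0.518%) and 0.644% (0.641% to 0.648%) in the DDX5ΔIEC colon libraries, intervals that cover counting error only. The groups overlapped. Car1 alone made up 47.1% and 52.3% of those counts in the WTIEC colon and 35.5% and 51.9% in the DDX5ΔIEC colon, the largest share of any of the 9 genes. In the ileum the 9 genes took 0.117% and 0.146% of counts in WTIEC mice and 0.170% and 0.0953% in DDX5ΔIEC mice, again overlapping.

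Loss of DDX5 from the epithelium was the question of the main comparison, first in the colon. There 3 genes stood out, with every DDX5ΔIEC library more than 2-fold above the WTIEC library of the same replicate number. Ms4a12 was at 12.9 and 12.8 CPM in the WTIEC colon and at 48.8 and 40.6 CPM in the DDX5ΔIEC colon. Mal was at 15.5 and 14.7 CPM in the WTIEC colon and at 45.1 and 42.5 CPM in the DDX5ΔIEC colon. Clca4a was at 106 and 122 CPM in the WTIEC colon and at 255 and 339 CPM in the DDX5ΔIEC colon. The groups did not overlap for any of the 3, and the means of the DDX5ΔIEC colon were 3.47-fold, 2.90-fold and 2.602-fold those of the WTIEC colon for Ms4a12, Mal and Clca4a. Between libraries of the same replicate number the ratio was 3.78 and 3.17 for Ms4a12, 2.90 and 2.89 for Mal, and 2.41 and 2.77 for Clca4a. The fitted log2 fold changes were 1.78 ± 0.11, 1.52 ± 0.10 and 1.36 ± 0.09 (SE, n = 2 against 2). Because whole epithelial preparations were sequenced, fewer cells of a type and less RNA per cell cannot be told apart, nor can more cells and more RNA per cell.

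A water channel and a carbonic anhydrase followed with smaller differences. Aqp8 was at 281 and 222 CPM in the WTIEC colon and at 518 and 365 CPM in the DDX5ΔIEC colon. Car4 was at 245 and 237 CPM in the WTIEC colon and at 443 and 318 CPM in the DDX5ΔIEC colon. For both genes the groups did not overlap, and DDX5ΔIEC replicate 1 was the higher of its group. The log2 fold change was 0.79 ± 0.09 for Aqp8, or 1.76-fold in the ratio of means, and 0.63 ± 0.13 for Car4, or 1.58-fold. Ceacam20 was at 110 and 123 CPM in the WTIEC colon and at 135 and 131 CPM in the DDX5ΔIEC colon. Those groups did not overlap, yet the log2 fold change was 0.19 ± 0.09.

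The 2 cytosolic carbonic anhydrases and the other aquaporin, the most abundant RNAs among the 9 genes by CPM, overlapped between genotypes in the colon. Car1 was at 2033 and 2422 CPM in the WTIEC colon and at 1702 and 2962 CPM in the DDX5ΔIEC colon. Car2 was at 739 and 671 CPM in the WTIEC colon and at 960 and 721 CPM in the DDX5ΔIEC colon. Aqp4, a channel of the basolateral membrane, was at 774 and 803 CPM in the WTIEC colon and at 683 and 789 CPM in the DDX5ΔIEC colon. The highest and the lowest Car1 values were both in DDX5ΔIEC mice, so its log2 fold change of 0.01 ± 0.16 became 0.41 without DDX5ΔIEC colon replicate 1 and −0.39 without DDX5ΔIEC colon replicate 2. The log2 fold change was 0.23 ± 0.11 for Car2, with 0.03 without DDX5ΔIEC colon replicate 1 and 0.44 without DDX5ΔIEC colon replicate 2, and −0.11 ± 0.09 for Aqp4, with −0.001 and −0.21. Both DDX5ΔIEC colon libraries were thus above both WTIEC ones for Ms4a12, Mal, Clca4a, Aqp8, Car4 and Ceacam20, and not for all 9 genes. The share of all genes separated in this way is not given here, so nothing is read from that separation.

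By the criterion of the study, an unadjusted p under 0.05 together with a change of 0.5 or more, up or down, on the log2 scale, 5 of the 9 genes were higher and 0 were lower in the DDX5ΔIEC colon, a count that describes these genes and tests none of them. Among the 12557 protein-coding genes tested there, 331 were higher (2.64%) and 503 were lower (4.01%), and since the genes were chosen by earlier results of these data, nothing is read from the difference in share. The 5 became 4 without DDX5ΔIEC colon replicate 1, where Car4 had a log2 fold change of 0.40 and did not meet the criterion, and without WTIEC colon replicate 2, where Aqp8 had one of 0.65 and did not meet it. A fit with 1 library left out used the other 7 libraries of both tissues in 4 groups, without the replicate block (the term for replicate number). A count from such a fit can change with the missing library or with the model, which cannot be told apart. At an adjusted p under 0.05, edgeR called 0 of 15362 genes in the colon (0%), with 1836 at an unadjusted p under 0.05, while DESeq2 called 117 with the replicate block and 183 without it. Without DDX5ΔIEC colon replicate 2 the edgeR count was 193. Without the replicate block edgeR called 5 genes in the colon at an adjusted p under 0.05. An exact permutation test of 2 against 2 libraries cannot give a p under 0.333.

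**Figure D2:**
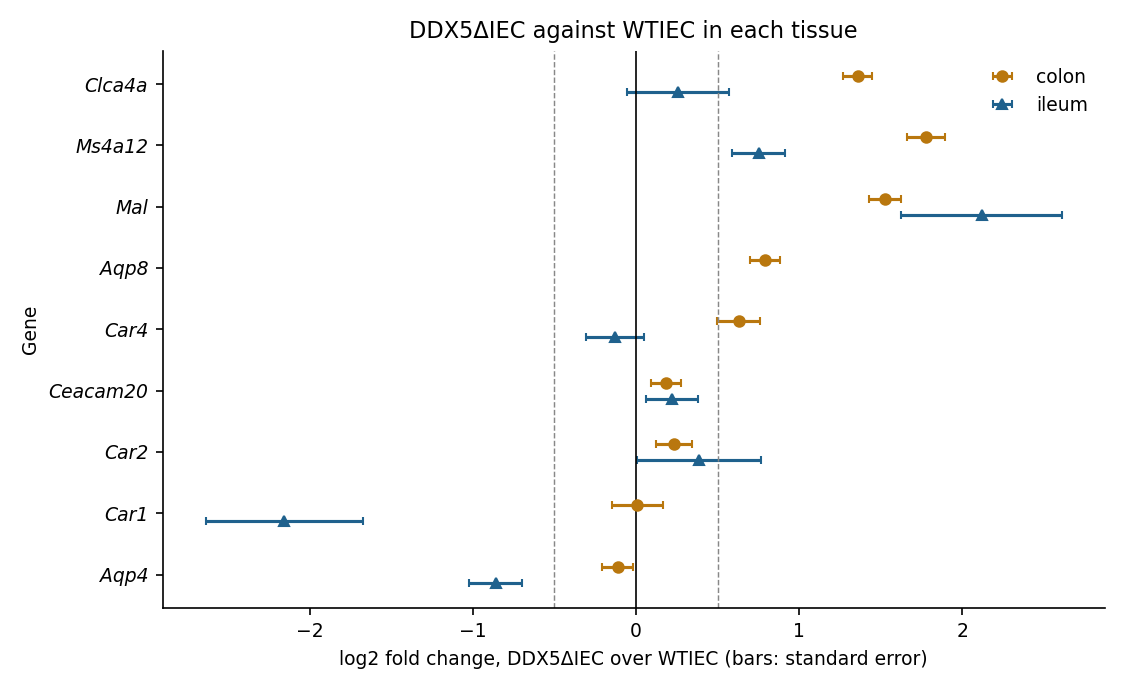
Log2 fold change of DDX5ΔIEC over WTIEC for the 9 genes in the colon (circles) and the ileum (triangles), with standard errors from edgeR over 2 against 2 libraries. Dashed lines mark 0.5 in either direction. Ms4a12, Mal and Clca4a lie between 1.36 and 1.78 in the colon, and Aqp8 had too few ileum counts for a fit.

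In the ileum Ms4a12 and Mal were again higher. Ms4a12 was at 19.6 and 18.7 CPM in the WTIEC ileum and at 37.9 and 26.9 CPM in the DDX5ΔIEC ileum. Mal was at 0.600 and 0.347 CPM in the WTIEC ileum and at 3.00 and 1.18 CPM in the DDX5ΔIEC ileum, which rested on 13 and 5 counts against 32 and 11. Both genes were higher in each DDX5ΔIEC ileum library than in either WTIEC one, as in the colon, with a log2 fold change of 0.75 ± 0.16 for Ms4a12 and 2.12 ± 0.49 for Mal. Without DDX5ΔIEC ileum replicate 1 the log2 fold change was 0.48 for Ms4a12 and 1.23 for Mal. Clca4a was at 469 and 689 CPM in the WTIEC ileum and at 1005 and 456 CPM in the DDX5ΔIEC ileum. Those groups overlapped, and the log2 fold change of 0.26 ± 0.31 ran from −0.35 without DDX5ΔIEC ileum replicate 1 to 0.81 without DDX5ΔIEC ileum replicate 2, so that 1 library set the direction.

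The aquaporins and Car1 were lower in the DDX5ΔIEC ileum. Aqp4 was at 24.8 and 22.5 CPM in the WTIEC ileum and at 13.1 and 12.8 CPM in the DDX5ΔIEC ileum. Car1 was at 4.15 and 1.53 CPM in the WTIEC ileum and at 0.937 and 0.321 CPM in the DDX5ΔIEC ileum, from 90 and 22 counts against 10 and 3. Aqp8 had 11 and 15 counts in the WTIEC ileum and 3 and 1 in the DDX5ΔIEC ileum, too few for a fit. All 3 genes had every DDX5ΔIEC ileum library below every WTIEC one. For the ileum, too, the share of all genes separated between genotypes is not given, and nothing is read from such separation. The log2 fold change was −0.86 ± 0.16 for Aqp4 and −2.16 ± 0.48 for Car1, and for Car1 it became −1.24 without WTIEC ileum replicate 1, −1.63 without DDX5ΔIEC ileum replicate 2, −2.67 without WTIEC ileum replicate 2 and −3.18 without DDX5ΔIEC ileum replicate 1. Car2 was at 1.43 and 2.08 CPM in the WTIEC ileum and at 2.34 and 2.14 CPM in the DDX5ΔIEC ileum, from 31 and 30 counts against 25 and 20. Both DDX5ΔIEC ileum libraries were above both WTIEC ones, yet the log2 fold change was 0.39 ± 0.38. The abundant ileal genes Car4, at 472 and 542 CPM against 479 and 445 CPM, and Ceacam20, at 247 and 232 CPM against 330 and 236 CPM, overlapped between genotypes, with log2 fold changes of −0.13 ± 0.18 and 0.22 ± 0.16.

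Of the 8 genes with enough counts for a fit in the ileum, 2 were higher (Mal and Ms4a12) and 2 were lower (Aqp4 and Car1) by the criterion of the study, again as a description. Over all 12064 protein-coding genes tested in the ileum, 456 were higher (3.78%) and 341 were lower (2.83%), and again nothing is read from the shares. Ms4a12 did not meet it without DDX5ΔIEC ileum replicate 1, and Car1 did not without DDX5ΔIEC ileum replicate 2 or WTIEC ileum replicate 1. Clca4a was higher by it without DDX5ΔIEC ileum replicate 2, and Aqp8 was lower by it without WTIEC ileum replicate 1, in a single fit of all 8 libraries and with no filter on low counts. Over all genes 701 were higher and 597 lower without DDX5ΔIEC ileum replicate 2, and 226 were lower without WTIEC ileum replicate 2. At an adjusted p under 0.05, 98 of 14068 genes passed in the ileum (0.697%). That count was 1 without the replicate block, 7 in a single fit of all 8 libraries and 20 without the 3 repeat-like genes. Counts with an ileum library left out come from fits of both tissues without that block. Their difference from the counts above therefore cannot be put down to the missing library alone.

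Whether the response differed between tissues was asked by the interaction of tissue and genotype over all 8 libraries. The difference in log2 fold change, colon minus ileum, was 1.04 ± 0.49 for Clca4a, 1.03 ± 0.24 for Ms4a12, 0.79 ± 0.24 for Car4, 0.77 ± 0.19 for Aqp4, 2.24 ± 0.83 for Car1 and 2.65 ± 0.88 for Aqp8, and −0.55 ± 0.53 for Mal, −0.13 ± 0.33 for Car2 and −0.05 ± 0.23 for Ceacam20. These are descriptions, given without a p, because the genes were selected on genotype differences of these libraries. With each library left out in turn the difference ran from 0.55 to 1.73 for Clca4a, 0.78 to 1.31 for Ms4a12, 0.53 to 1.01 for Car4, 0.65 to 0.87 for Aqp4, 1.30 to 3.25 for Car1 and 2.13 to 3.51 for Aqp8, and it took either sign for Mal (−1.08 to 0.30), Car2 (−0.40 to 0.14) and Ceacam20 (−0.30 to 0.22). Leaving out DDX5ΔIEC ileum replicate 1 or DDX5ΔIEC ileum replicate 2 gave the 2 ends for Clca4a, Ms4a12, Mal and Ceacam20, and WTIEC ileum replicate 1 or WTIEC ileum replicate 2 those for Car2. Across all genes, 2 of 16178 (0.0124%), or 1 with the mouse as replicate block, passed an adjusted p of 0.05 for the interaction. The 2 genes were Slc8a1 at −4.89 ± 0.45 (adjusted p 0.0428) and Mptx2 at −2.39 ± 0.24 (0.0497), both named after their values were seen. That count was 30 without DDX5ΔIEC colon replicate 2, 1 without DDX5ΔIEC colon replicate 1, and 0 without any one of the other 6 libraries, and it was 17 in DESeq2.

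The contrast of colon with ileum was also made within DDX5ΔIEC mice, and since it reuses the DDX5ΔIEC values on which the genes were selected, it is given for them as a description without a p. By the threshold used in WTIEC mice, 5 of the 9 genes were higher in the colon (17.3% of all genes tested were) and 2 were higher in the ileum (18.0% of all genes were), and nothing is read from these shares. With the mouse as replicate block Ms4a12 was also higher in the colon by that threshold, which made 6, as it was with no filter on low counts and without DDX5ΔIEC ileum replicate 1. Mal, Aqp8, Aqp4, Car1 and Car2 remained far higher in the colon, with log2 fold changes of 4.36 ± 0.32, 11.06 ± 0.80, 5.82 ± 0.13, 11.80 ± 0.70 and 8.54 ± 0.24. For Aqp8 and Car1 the size of that contrast rests on the few ileum counts given above. Ceacam20 remained higher in the ileum, with a log2 fold change of colon over ileum of −1.09 ± 0.16. Clca4a was still higher in the ileum at −1.30 ± 0.35, which was −1.10 without DDX5ΔIEC colon replicate 1 and −0.61 without DDX5ΔIEC ileum replicate 1, and it did not pass the threshold in either fit. Ms4a12 was at 48.8 and 40.6 CPM in the DDX5ΔIEC colon and at 37.9 and 26.9 CPM in the DDX5ΔIEC ileum. In these mice both colon libraries were above both ileum libraries, the reverse of the order in WTIEC mice, at a log2 fold change of 0.46 ± 0.17 that ran from 0.21 to 0.74 with 1 library left out. Car4 was at 443 and 318 CPM in the DDX5ΔIEC colon and at 479 and 445 CPM in the DDX5ΔIEC ileum, at a log2 fold change of −0.28 ± 0.17, and it was among the genes higher in the ileum only without DDX5ΔIEC colon replicate 1.

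**Figure D3:**
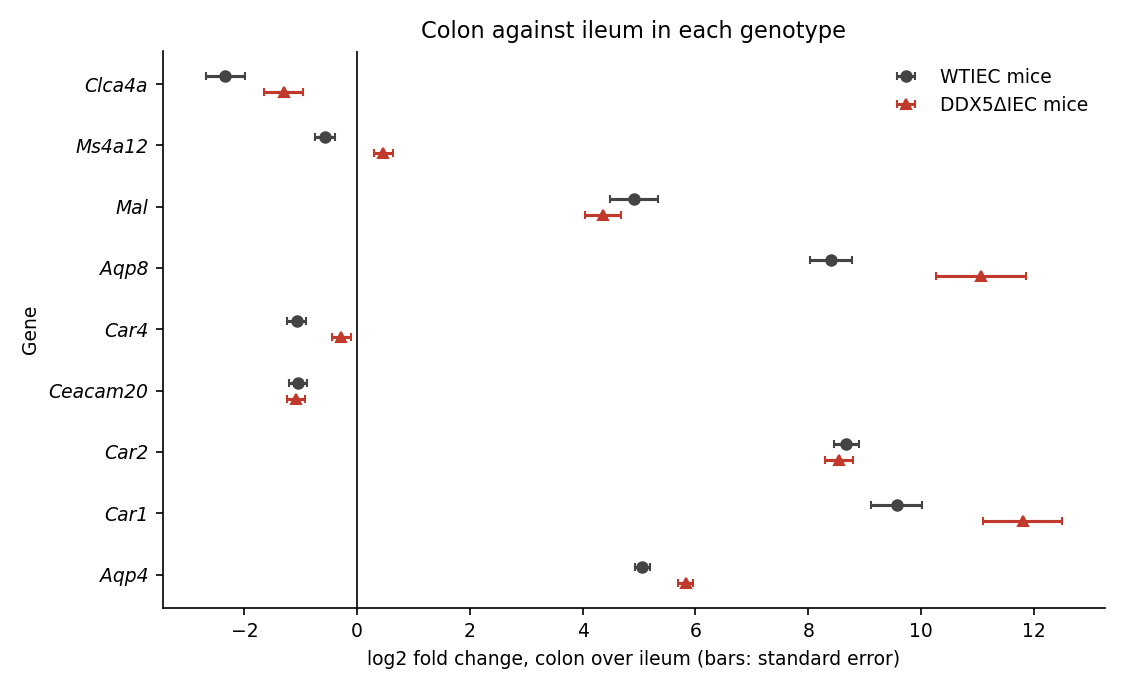
Log2 fold change of colon over ileum for the 9 genes in WTIEC (circles) and DDX5ΔIEC mice (triangles), with standard errors from edgeR. Mal, Aqp8, Car2, Car1 and Aqp4 lie above 4 in both genotypes, Clca4a and Ceacam20 lie below 0 in both, and Ms4a12 lies at −0.57 in WTIEC and at 0.46 in DDX5ΔIEC mice.

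Since Ms4a12, Mal, Aqp8 and Car4 moved in the same direction in the colon, the sequences around their start sites are shown. RefSeq gave promoters (GRCm38.p6, 250 bases before to 50 after the start site, 5′ to 3′ on the strand of the gene) for 5 of the 9 genes, Ceacam20 among them. Short words of 4 families were searched on both strands: TTTATGG or TTTATTG for CDX factors, CAAAGTCCA or CAAAGGTCA for HNF4, GGGCGTG or CCACACCC for KLF factors, and AGATAA for GATA factors. Capitals mark the matches, none of which overlapped another. The windows are chr19:11232404-11232703 (minus strand) for Ms4a12, chr2:127656646-127656945 (minus) for Mal, chr7:123462044-123462343 (plus) for Aqp8 and chr11:84957504-84957803 (plus) for Car4.
Ms4a12: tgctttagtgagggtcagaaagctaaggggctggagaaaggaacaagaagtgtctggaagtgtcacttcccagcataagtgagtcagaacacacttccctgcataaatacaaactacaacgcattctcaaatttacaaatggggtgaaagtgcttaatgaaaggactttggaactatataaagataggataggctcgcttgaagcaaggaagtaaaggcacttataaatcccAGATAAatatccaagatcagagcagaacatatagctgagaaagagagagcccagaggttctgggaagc
Mal: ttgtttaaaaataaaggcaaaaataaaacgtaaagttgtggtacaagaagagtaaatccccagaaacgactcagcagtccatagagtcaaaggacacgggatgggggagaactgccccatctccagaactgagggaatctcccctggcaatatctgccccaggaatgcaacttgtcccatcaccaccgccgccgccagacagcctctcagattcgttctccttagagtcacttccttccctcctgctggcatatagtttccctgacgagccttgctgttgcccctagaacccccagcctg
Aqp8: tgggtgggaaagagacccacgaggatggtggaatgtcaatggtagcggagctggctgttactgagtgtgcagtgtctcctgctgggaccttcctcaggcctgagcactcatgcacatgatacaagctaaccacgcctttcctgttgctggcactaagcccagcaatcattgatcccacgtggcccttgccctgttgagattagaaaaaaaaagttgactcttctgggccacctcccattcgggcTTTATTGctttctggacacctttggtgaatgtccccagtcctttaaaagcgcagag
Car4: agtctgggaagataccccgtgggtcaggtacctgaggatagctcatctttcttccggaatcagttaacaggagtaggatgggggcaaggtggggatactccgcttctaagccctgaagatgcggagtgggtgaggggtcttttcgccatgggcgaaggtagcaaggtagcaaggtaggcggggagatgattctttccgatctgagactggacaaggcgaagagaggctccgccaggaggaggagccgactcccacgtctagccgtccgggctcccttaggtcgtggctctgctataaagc

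AGATAA began 18 bases before the start site of Ms4a12, and 11.2% of 32851 promoters hold that word. TTTATTG began 6 bases before the start site of Aqp8 and 186 bases before that of Ceacam20, and 1511 of the 32851 promoters hold it, with 7.20% holding one or the other CDX word. The Mal and Car4 windows held none of the words, and no window of the 5 held an HNF4 word (312 of the 32851 promoters) or a KLF word (11.6%). The share of G and C was 42.0% for Ms4a12, 51.0% for Mal, 52.0% for Aqp8, 54.7% for Ceacam20 and 57.3% for Car4, beside a median of 52.7% over all promoters. The words are a description of these letters and were not tested for any factor.

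The genes shared little by position. In the GRCm38 annotation, 7 of the 9 identifiers had the same version as in the deposited tables, and positions are given for those. Car1 (chr3:14766216-14808368, minus strand, 8 exons) and Car2 (chr3:14886273-14900770, plus strand, 7 exons) lie in one cluster, with Car3 between them at 55143 bases from Car1 and 13749 bases from Car2, and Car13 at 103213 bases on the other side of Car1. Clca4a (chr3:144952480-144975045, minus strand, 14 exons) lies 19950 bases from Clca4b. Mal (chr2:127633226-127656695, minus strand, 4 exons), Aqp8 (chr7:123462291-123468004, plus strand, 6 exons), Car4 (chr11:84957786-84966044, plus strand, 8 exons) and Ceacam20 (chr7:19965412-19991104, plus strand, 12 exons) stand apart from these and from each other. Within the carbonic anhydrase cluster Car13 was at 36.2 and 36.6 CPM in the WTIEC colon and at 31.8 and 36.6 CPM in the DDX5ΔIEC colon, a log2 fold change of −0.10 ± 0.10, and Car3 was under 1 CPM in all colon libraries.

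Clca4a and its neighbor Clca4b share sequence. Of the words of 50 bases in Clca4a transcripts, 37.1% also occur in other genes, 23.6% in the pseudogene Clca4c-ps, and of those in Clca4b 21.0% occur in Clca4a. Car1 shared 13.4% with the pseudogene Gm5843, Ceacam20 shared 1.54% and Ms4a12 0.227% with other genes, and Mal, Aqp8, Aqp4, Car2 and Car4 shared 0%. The authors counted uniquely mapped reads, and how far shared stretches could be mapped at the read length was not tested. Genes overlapping on the opposite strand were low beside Clca4a (Gm35066, 0.461 to 3.15 CPM) and Ms4a12 (4930526L06Rik, at most 0.110 CPM). Clca4b was at 8.98 and 8.58 CPM in the WTIEC colon and at 21.9 and 14.9 CPM in the DDX5ΔIEC colon, against 1760 and 1883 CPM in the WTIEC ileum and 2440 and 1280 CPM in the DDX5ΔIEC ileum. Like Clca4a it was higher in both DDX5ΔIEC colon libraries than in the WTIEC colon, and higher in the ileum than in the colon. In WTIEC mice its log2 fold change of colon over ileum was −7.70 ± 0.31, against −2.34 ± 0.35 for Clca4a. Between genotypes the log2 fold change of Clca4b was 1.03 ± 0.18 in the colon (adjusted p 0.246) and −0.04 ± 0.27 in the ileum (0.978).

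Not all relatives of these genes had enough counts to be tested in the colon, where 2.64% of all protein-coding genes were higher and 4.01% lower by the criterion. Among 6 other CLCA genes tested there, 1 was higher by the criterion of the study (Clca4b) and 4 were lower, with a median log2 fold change of −0.89 beside −0.002 over all protein-coding genes tested. Clca1, a secreted protein of goblet cells that the goblet list below also holds, was at 15002 and 15546 CPM in the WTIEC colon and at 4118 and 6508 CPM in the DDX5ΔIEC colon, a log2 fold change of −1.57 ± 0.18 (adjusted p 0.166). Clca2 fell by 2.29 ± 0.31 (0.180) and Clca3a2 by 0.90 ± 0.26 (0.340) on the log2 scale, both lower in 2 of 2 replicate numbers. Of 8 other carbonic anhydrases, 0 were higher and 1 was lower, Car8, at 75.5 and 66.2 CPM in the WTIEC colon against 10.8 and 46.7 CPM in the DDX5ΔIEC colon (−1.60 ± 0.52, adjusted p 0.385). The 2 other aquaporins tested, Aqp1 (−0.48 ± 0.19) and Aqp11 (−0.03 ± 0.21), did not meet the criterion, nor did the MAL relatives Mal2 (−0.10 ± 0.10) and Mall (−0.11 ± 0.12). Of 5 other MS4A genes 1 was lower, Ms4a4b (−2.10 ± 0.54, adjusted p 0.303), under 1 CPM in every colon library. Of 5 other CEACAM genes 1 was lower, Ceacam10, at 61.8 and 69.9 CPM in the WTIEC colon and at 28.2 and 41.3 CPM in the DDX5ΔIEC colon (−0.95 ± 0.12, 0.180). The counts of lower CLCA, CEACAM, carbonic anhydrase and MS4A genes changed in fits with 1 library left out, which also lacked the replicate block.

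A further 16 genes were listed as other markers of surface colonocytes, although in WTIEC mice 4 of them (Tmigd1, Krt20, Cdhr2 and Cdhr5) were higher in the ileum and 9 in the colon at an adjusted p under 0.05. In the DDX5ΔIEC colon 3 of the 16 were higher, where 2.64% of all protein-coding genes were, and 0 were lower by the criterion of the study. A log2 fold change above 0 was found for 12, and the median was 0.27 beside −0.002 over all protein-coding genes tested. Slc26a3, the apical exchanger of chloride and bicarbonate, was at 669 and 596 CPM in the WTIEC colon and at 1310 and 815 CPM in the DDX5ΔIEC colon. Slc9a3, the apical exchanger of sodium and protons, was at 202 and 170 CPM in the WTIEC colon and at 332 and 331 CPM in the DDX5ΔIEC colon. Slc37a2 was at 151 and 132 CPM in the WTIEC colon and at 295 and 185 CPM in the DDX5ΔIEC colon. For all 3 the groups did not overlap, with log2 fold changes of 0.70 ± 0.15 (adjusted p 0.274), 0.83 ± 0.10 (0.166) and 0.72 ± 0.14 (0.261). The summed level of the 16 genes was 10806 and 10342 CPM in the WTIEC colon and 12941 and 11806 CPM in the DDX5ΔIEC colon, most of all from Lypd8. The count of 3 fell to 0 without DDX5ΔIEC colon replicate 1 and to 0 without WTIEC colon replicate 2. In the ileum 1 of 14 was higher (Cyp2c55, 0 without WTIEC ileum replicate 1), with a median of 0.18.

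Of 16 genes for bicarbonate, chloride and sodium transport, 3 were higher and 1 was lower in the DDX5ΔIEC colon, with a median of 0.24. Atp12a, a proton and potassium pump of the apical colon, was at 175 and 209 CPM in the WTIEC colon and at 598 and 343 CPM in the DDX5ΔIEC colon (log2 fold change 1.23 ± 0.25, adjusted p 0.272). The sodium channel subunit Scnn1b was at 6.88 and 5.81 CPM in the WTIEC colon and at 16.3 and 8.02 CPM in the DDX5ΔIEC colon (0.85 ± 0.24, 0.337). Its partner Scnn1g was at 2.36 and 1.23 CPM in the WTIEC colon and at 17.9 and 2.598 CPM in the DDX5ΔIEC colon (2.12 ± 0.46, 0.286). DDX5ΔIEC colon replicate 1 was the highest library for all 3, and without it 1 of the 16 was higher, as also without WTIEC colon replicate 2, while 5 were higher without DDX5ΔIEC colon replicate 2. The bicarbonate transporter Slc4a7 fell by 0.71 ± 0.11 in the colon (adjusted p 0.226) and by 0.93 ± 0.14 in the ileum (0.0245), lower in 2 of 2 replicate numbers in each tissue.

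Of 16 regulators of differentiation, 0 were higher and 1 was lower in the DDX5ΔIEC colon, with a median of 0.05. That gene was Cdx2, a homeobox factor of the intestine, at 211 and 207 CPM in the WTIEC colon and at 120 and 174 CPM in the DDX5ΔIEC colon (−0.54 ± 0.15, adjusted p 0.328). No regulator was lower by the criterion without DDX5ΔIEC colon replicate 1, WTIEC colon replicate 1 or WTIEC colon replicate 2, while 2 were higher without WTIEC colon replicate 1 and 1 was higher without DDX5ΔIEC colon replicate 1 or DDX5ΔIEC colon replicate 2. Of 8 genes of the posterior colon 0 met the criterion, with a median of 0.50, but 6 were higher and 1 lower without DDX5ΔIEC colon replicate 2. Hoxb13 was at 195 and 159 CPM in the WTIEC colon and at 282 and 165 CPM in the DDX5ΔIEC colon (0.28 ± 0.14, 0.479), groups that overlapped, and Hoxa13 differed by 0.42 ± 0.11 (0.319). Of 10 crypt base genes (median 0.07, Rgmb 0.15 ± 0.09 and Sox9 −0.26 ± 0.10) and 12 genes of proliferating cells (median −0.08, Pcna −0.01 ± 0.10 and Mki67 −0.22 ± 0.12), 0 met the criterion in either direction, while without DDX5ΔIEC colon replicate 2 the lower genes were 1 and 3. The higher crypt base genes were 2 without DDX5ΔIEC colon replicate 1 and 1 without DDX5ΔIEC colon replicate 2, and 1 gene of proliferating cells was higher without WTIEC colon replicate 2. Of 11 ileal absorptive genes tested in the colon 3 were higher and 0 lower, with a median of 0.49, though lower calls appeared with 1 library left out. Fabp6 (1.09 ± 0.26) and Anpep (0.73 ± 0.25) were among the 3 higher genes, both under 10 CPM in the colon. Without WTIEC colon replicate 2 that count was 0. In the ileum 2 of 15 of these genes were higher, with a median of 0.14, a count that ran from 0 without DDX5ΔIEC ileum replicate 1 or WTIEC ileum replicate 1 to 5 without DDX5ΔIEC ileum replicate 2.

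Marker genes of other cell types differed between the same colon libraries. T cell markers summed to 37.4 and 29.1 CPM in the WTIEC colon and to 7.40 and 17.6 CPM in the DDX5ΔIEC colon, with Ptprc highest in mean CPM over all 8 libraries. Tuft cell markers summed to 76.9 and 83.7 CPM in the WTIEC colon and to 26.2 and 55.7 CPM in the DDX5ΔIEC colon, with Dclk1 highest by that mean. Goblet cell markers summed to 46558 and 51886 CPM in the WTIEC colon and to 27899 and 41566 CPM in the DDX5ΔIEC colon, with Fcgbp highest by that mean, although Muc2 was above it in DDX5ΔIEC colon replicate 2 at 19236 against 12269 CPM. All 3 sums were lower in each DDX5ΔIEC colon library than in either WTIEC one, and lowest in DDX5ΔIEC colon replicate 1. By the criterion of the study 0 of 7 T cell genes were higher and 3 lower (Cd8a −2.22 ± 0.69, Cd3d −1.99 ± 0.54 and Ptprc −1.43 ± 0.29, median −1.43), 5 of 5 tuft cell genes were lower (Pou2f3 −1.52 ± 0.43, Dclk1 −1.20 ± 0.30 and Trpm5 −1.05 ± 0.20 among them, median −1.17), and 2 of 8 goblet cell genes were lower (Clca1 and Fcgbp, the latter −0.61 ± 0.12, median −0.28). None of these markers was at 0 in all colon libraries. Without DDX5ΔIEC colon replicate 2 the T cell count was 7, and the tuft cell count was 1 without DDX5ΔIEC colon replicate 1, 3 without WTIEC colon replicate 1 and 2 without WTIEC colon replicate 2. The goblet cell count was 1 without DDX5ΔIEC colon replicate 1 or WTIEC colon replicate 2. In the ileum 0 of 6 T cell genes met the criterion, 6 of 6 tuft cell genes were lower (0 without WTIEC ileum replicate 2) and 2 of 8 goblet cell genes were higher (0 without DDX5ΔIEC ileum replicate 1 or WTIEC ileum replicate 2). The part that cell composition has in the values of the 9 genes was not tested.

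Enteroendocrine genes were higher in the DDX5ΔIEC colon for 3 of 8 (Isl1 0.93 ± 0.35, Gcg 0.59 ± 0.10 and Pyy 0.52 ± 0.15), summing to 136 and 140 CPM in the WTIEC colon and 149 and 186 CPM in the DDX5ΔIEC colon, and for 3 of 7 in the ileum, with 1 in the colon without DDX5ΔIEC colon replicate 1 or WTIEC colon replicate 1. Epithelial genes, with 0 of 6 meeting the criterion and Krt8 (0.08 ± 0.11) and Krt19 (0.12 ± 0.11) the most abundant per kilobase, summed to 10399 and 10148 CPM in the WTIEC colon and 11452 and 10638 CPM in the DDX5ΔIEC colon. Myeloid genes (0 of 3, Cd14 −0.34 ± 0.17 and Lyz2 −0.22 ± 0.50), erythrocyte genes (0 of 6, Hbb-bs −0.28 ± 0.48 and Hba-a1 0.33 ± 0.53) and the 1 B and plasma cell gene tested (Jchain, 1.60 ± 0.75) did not meet it. These counts did not stay at 0 under every alternative. Stromal and endothelial genes summed to 16.4 and 19.3 CPM in the WTIEC colon and 17.1 and 8.66 CPM in the DDX5ΔIEC colon, with 1 of 5 higher (Pecam1, 0.88 ± 0.32) and 1 lower (Vwf, −0.98 ± 0.21), counts that were both 0 without DDX5ΔIEC colon replicate 2 and were 0 and 4 without DDX5ΔIEC colon replicate 1.

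**Figure D4:**
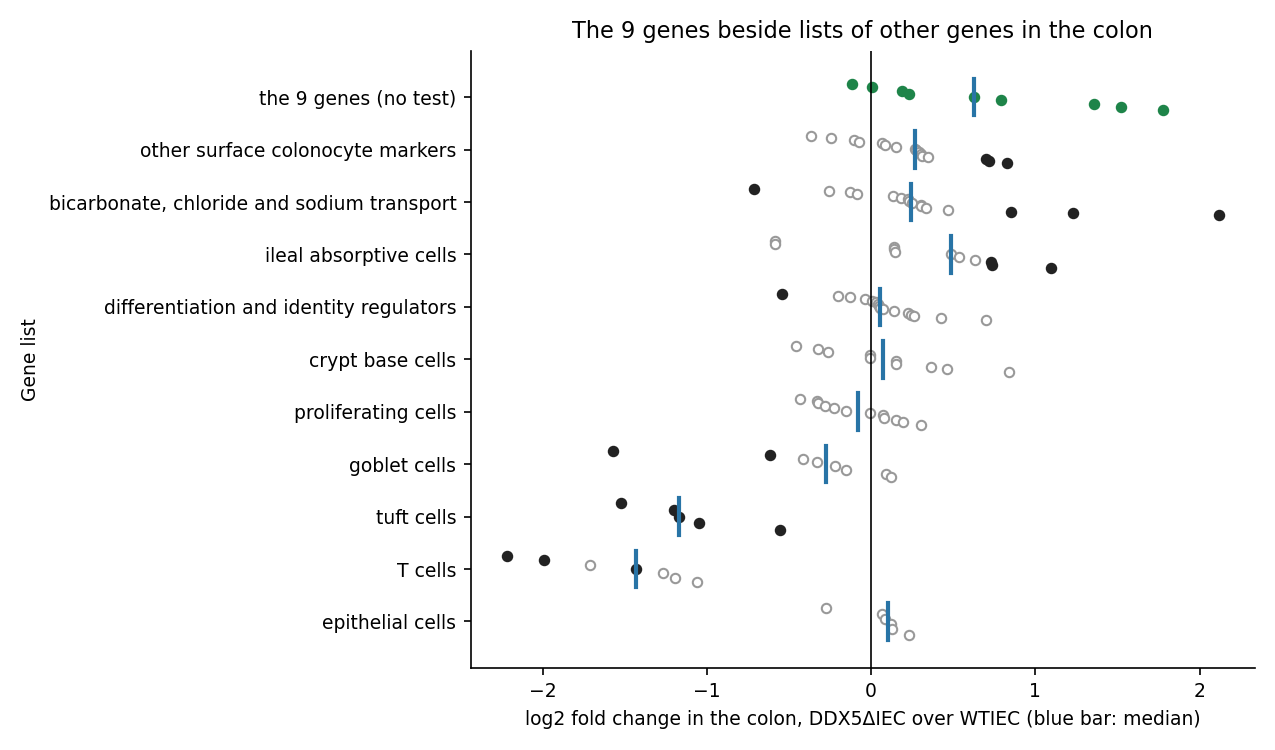
Log2 fold change of DDX5ΔIEC over WTIEC in the colon for the 9 genes (green, no test) and for genes of 10 lists (circles), filled where a gene met the criterion of the study. Blue bars are medians. The other surface colonocyte markers have a median of 0.27, and the tuft and T cell markers have medians of −1.17 and −1.43.

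The genes whose pattern over the 8 libraries was most like the mean profile of the 9 genes, by the root mean square difference of centered log2 levels, were Dgkh (0.242), Clec14a (0.249), Gna14 (0.252), Prkacb (0.257) and Gstm2 (0.263). All 5 were nearer to that mean than any of the 9 genes, which lay from 0.628 (Mal) to 3.37 (Car1) from it, since the 9 genes differ so much in how colon compares with ileum. Clec14a was at 18.4 and 16.1 CPM in the WTIEC colon and at 27.5 and 26.7 CPM in the DDX5ΔIEC colon, a log2 fold change of 0.65 ± 0.11 with an adjusted p of 0.240. The others had log2 fold changes in the colon of 0.48 ± 0.09 for Gna14, 0.37 ± 0.11 for Prkacb, 0.15 ± 0.09 for Gstm2 and 0.07 ± 0.08 for Dgkh.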

How the data were processed

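The authors deposited 1 table per tissue with counts for every gene and library, made per the labels with STAR 2.6.1a and featureCounts on mm10 from ribosome-depleted, stranded libraries; the strand setting of the counting is not stated. All per-sample columns matched a library, and the columns of the authors' own comparison were not used. Gene symbols that had become dates were put back (25 in the colon, 26 in the ileum), and a gene in 1 table was taken as 0 in the other. Within each tissue edgeR 4.0.16 (R 4.3.3) fitted replicate number and genotype by its quasi-likelihood test, after filterByExpr (minimum count 10) and TMM. The paper describes pairs of cohoused littermates, and the replicate number was taken as the pair, though no label ties it to a litter. The deviations of paired libraries correlated at 0.00559 in the colon and 0.240 in the ileum over genes. Tissue contrasts and the interaction used all 8 libraries in 4 groups. P-values were adjusted over all genes tested (Benjamini-Hochberg). DESeq2 1.42.0, RLE normalization, other blocks, no filter, a log2 fold change of 1 and each library left out were tried. A fit with 1 library left out used the other 7 libraries of both tissues in 4 groups, without the replicate block. Leaving out the 3 repeat-like genes was chosen after seeing the data. The members and lists were chosen with earlier results of these data known. Named from each list were up to 4 genes with the largest colon change among those meeting the criterion, or otherwise the 2 most abundant per kilobase; the 5 likeness genes had at least 10 CPM in the WTIEC colon. Python 3.11.15 made the tables.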

Additional observations from a re-analysis of the deposited data

Results flagged for a closer look

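Among the 9 genes, the genes named from the lists and the 5 likeness genes, every DDX5ΔIEC library lay on one side of the WTIEC libraries in the colon and on the opposite side in the ileum for 8 of the 63 looked at (12.7%), where 677 of all 16178 genes did so (4.18%); the genes were not drawn at random, so nothing is read from the number. Aqp8 was one of the 9 genes, with an interaction log2 fold change, colon minus ileum, of 2.65 that rests on 11 and 15 against 3 and 1 ileum counts; the difference was not tested, because the gene was selected on these data. The other 7 differences had adjusted p-values over all genes from 0.935 to 1.00, so none passed the threshold. Slc37a2 differed by 1.96, Atp12a by 2.57 and Isl1 by 1.43, each higher in the DDX5ΔIEC colon and lower in the DDX5ΔIEC ileum. Pecam1 differed by 1.32 and Prkacb by 0.76 in the same direction. Ileum levels were low for Slc37a2 (0.187 to 1.11 CPM), Atp12a (0.214 to 0.832 CPM), Isl1 (0.642 to 1.06 CPM) and Pecam1 (0.642 to 0.969 CPM), and Slc37a2 and Atp12a had too few counts for a fit within the ileum. Scnn1b differed by 4.96, a fitted value that depends on the prior count since both DDX5ΔIEC ileum libraries were at 0. Ms4a4b differed by −3.23, lower in the DDX5ΔIEC colon and higher in the DDX5ΔIEC ileum, at no more than 1.03 CPM in any library.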

How the results depend on the processing

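No log2 fold change of a gene among the 9 that had met its criterion changed sign under any alternative. Over all alternatives 422 of their log2 fold changes moved no further than a yardstick or, between tissues, kept their call. The yardstick was the spread of the 2 replicate pairs within a tissue and the standard error for the interaction. Changes of sign are among the 422 where a gene had not met its criterion. Clca4a in the ileum, for example, went from 0.26 to −0.35 without DDX5ΔIEC ileum replicate 1. A further 34 moved by more than that yardstick. In the contrasts between tissues, at an adjusted p, 4 gained and 6 lost a call. Calls gained or lost within a tissue by the criterion of the study are not among those 4 and 6 and are given above. In gene lists 834 counts stayed within 1.5 times and 134 did not. With 2 libraries per group, 1 library left out leaves a lone library that is assumed to vary like the others. Within a tissue such a fit also drops the replicate block and takes in the libraries of the other tissue, so its counts mix both changes. The causes below were not tested unless a stricter threshold is the cause. Under DESeq2 with the replicate block the colon had 168 genes higher, 295 lower and 117 at an adjusted p under 0.05, and the ileum 206, 156 and 39. DESeq2 without the block gave 183 at an adjusted p in the colon, and 268 higher, 184 lower and 54 at an adjusted p in the ileum. A log2 fold change of at least 1 left 136 higher and 250 lower in the colon with 3 of the 9 genes, and 170 higher and 63 lower in the ileum with 2 of the 9. A single fit of all 8 libraries gave 10 at an adjusted p in the colon and 7 in the ileum. With no replicate block these counts were 5 and 1. No filter on low counts gave 517 lower and 423 at an adjusted p in the ileum and 210 for the interaction. Without the 3 repeat-like genes, a choice made after seeing the data, 20 passed an adjusted p in the ileum. The interaction count was 17 in DESeq2 and 1 with the mouse as replicate block, which also put 8 of the 9 genes rather than 7 past the threshold between tissues in DDX5ΔIEC mice. Leaving out each library in turn gave 225 to 565 higher, 299 to 966 lower and 0 to 193 at an adjusted p in the colon, with 4 to 5 of the 9 genes; 386 to 701, 226 to 597 and 0 to 1 in the ileum, with 3 to 4 of the 9; 0 to 30 for the interaction; 3153 to 3631 between tissues in WTIEC mice, with 8 of the 9; and 4159 to 5081 in DDX5ΔIEC mice, with 7 of the 9, though not always the same 7. No replicate looked like a copy of the other, with a chi-square per degree of freedom between replicates from 9.58 in the WTIEC colon to 233 in the DDX5ΔIEC ileum, where 1 library held many repeat-like counts. Aqp8, Car1, Car2 and Mal in the ileum had 1 to 90 counts per library.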
